A study of Mus musculus with 10 samples.

Results

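The genes described here are 40 regulators and executors of apoptosis: the BCL2 family, the death receptor branch, the caspases, the proteins that act at or leave mitochondria, and the inhibitors of these steps. They were chosen by gene symbol for their known roles, and each of the 40 symbols matched 1 row of the 23510 genes in the deposited table. Of the 40 genes, 29 were counted as promoting cell death and 11 as restraining it. Dffa, Bnip3 and Bnip3l, whose roles are mixed, were counted on the promoting side. MT-ret melanomas were the source of the RNA: their lymphatic endothelial cells (LEC), which form the lining of lymph vessels, were isolated by FACS before sequencing. Tumor fragments had been implanted on the flank of 10 C57BL/6N mice, of which 5 received anti-Ang2, an antibody against angiopoietin-2, and 5 received IgG. All tumors were taken 12 h after the injection, and each mouse gave 1 library. The labels give neither the age of the mice nor a genotype beyond the strain.

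In the mitochondrial pathway of apoptosis, the effectors BAX and BAK permeabilize the outer mitochondrial membrane, guardians such as BCL2, BCL-XL and MCL1 hold them in check, and BH3-only proteins such as BIM and PUMA release that check. Cytochrome c then assembles APAF1 and caspase-9 into the apoptosome, which activates the executioner caspases, while death receptors reach the same executioners through FADD and caspase-8. Angiopoietin-2 is a ligand of the endothelial receptor TIE2, whose signal through AKT is known to restrain FOXO transcription factors in endothelial cells, and Bcl2l11 (BIM) and Bbc3 (PUMA) are known FOXO target genes in other cell types.

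Total counts ran from 38090933 to 83850341 per library. All 10 markers of LEC had counts in every library, and their summed level was 14480 to 19750 CPM (counts scaled to the size of the library) in the anti-Ang2 libraries, against 18000 to 21280 CPM in the IgG libraries. For 8 markers shared by all endothelial cells the sum was 4633 to 5536 CPM with anti-Ang2 and 6003 to 7338 CPM with IgG, without overlap. The summed level of 12 melanoma markers was 1277 to 5896 CPM (median 4182) in the anti-Ang2 libraries, against 459 to 2084 CPM (median 836) in the IgG libraries, and anti-Ang2 libraries 1, 2 and 3 held the highest sums. For 15 macrophage markers the sum was 72.9 to 277 CPM (median 172) with anti-Ang2 and 52.1 to 206 CPM (median 76.3) with IgG, and no marker of either list was at 0 in every library. The sum of 10 pericyte and smooth muscle markers was 156 to 444 CPM with anti-Ang2 and 61.0 to 241 CPM with IgG. By edgeR at an adjusted p under 0.05, 3 of the 10 LEC markers and 4 of the 8 endothelial markers were lower, none higher. Of the 12 melanoma markers 1 was higher and 0 lower, and of the 10 pericyte markers also 1 and 0. Of the macrophage markers 13 were tested and 0 were called. Over all 16240 genes tested, 217 were higher and 454 lower. Nrp2, a LEC marker, had 223 to 327 CPM with anti-Ang2 and 537 to 1095 CPM with IgG. Lyve1, another LEC marker, had 4305 to 6187 CPM with anti-Ang2 and 4429 to 5244 CPM with IgG. In such bulk RNA, fewer cells of a type, less RNA per cell and a change in the marker genes cannot be told apart.

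Among the 40 genes, Bcl2l11, which encodes the BH3-only protein BIM, was higher in LEC from anti-Ang2-treated mice, and no member was called lower by edgeR, DESeq2 or limma-voom. The test was edgeR's quasi-likelihood F test on the counts of all 16240 genes that passed a filter on low counts, with a Benjamini-Hochberg adjusted p under 0.05 as the threshold. All 40 members passed the filter. Over all genes tested, 4.13% were called in either direction and 1.34% were called higher, so 1 member called higher of 40 was close to the background. At an unadjusted p under 0.05 in the same edgeR test, 10 of 40 members passed, against 18.2% of all genes. Of these 10, Bax, Pmaip1, Bcl2l11, Bmf, Bnip3, Bnip3l, Casp6 and Cflar had positive fold changes, and Casp8 and Xiap had negative ones. Over all 16240 genes tested, 1484 were higher and 1478 lower at that unadjusted threshold. The median log2 fold change was 0.10 over the 29 pro-apoptotic genes, -0.03 over the 11 anti-apoptotic genes and 0.01 over all genes tested.

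**Figure D1:**
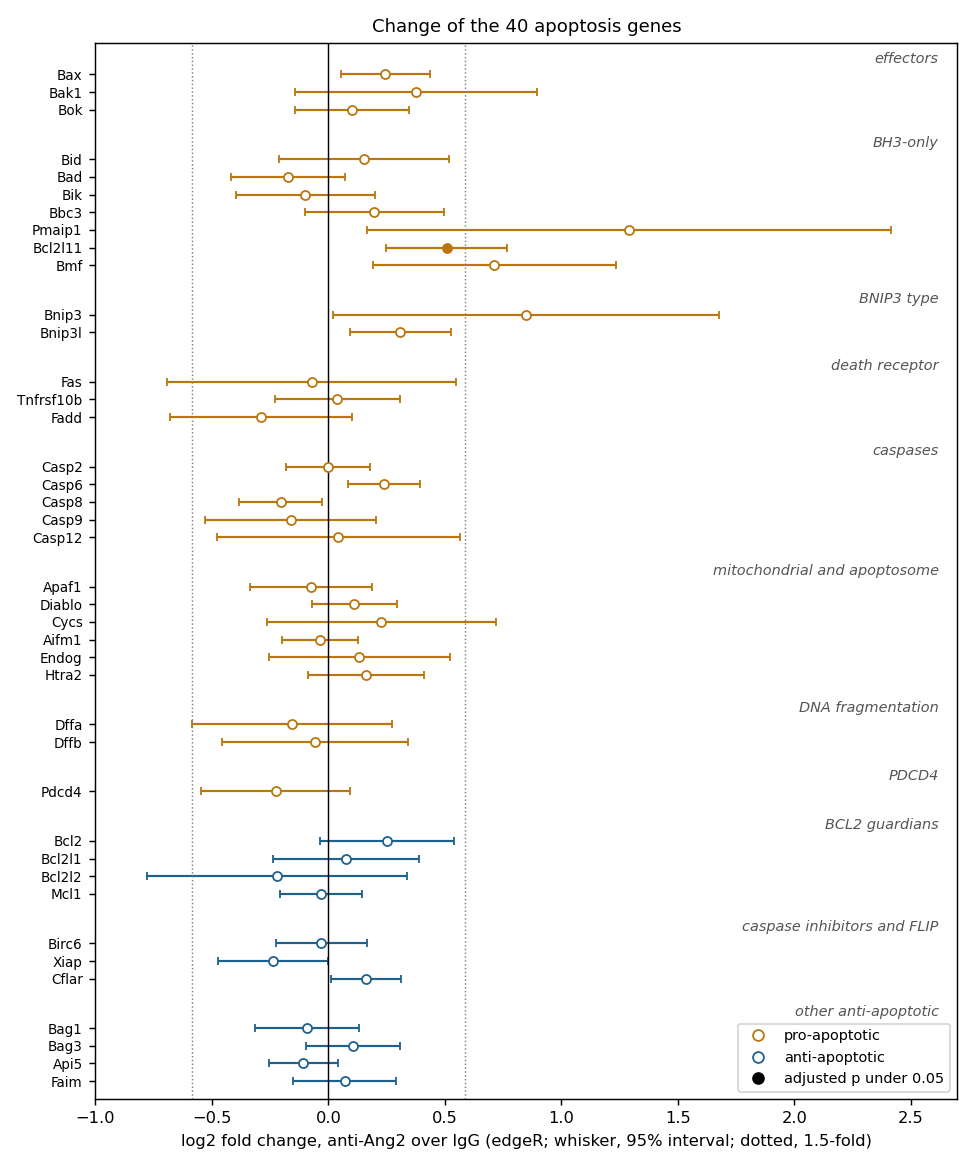
Log2 fold change of each of the 40 genes, anti-Ang2 over IgG, from edgeR with its 95% interval; genes are grouped by role, colours give the side, the filled point has an adjusted p under 0.05 and dotted lines mark 1.5-fold. Bcl2l11 is the filled point, at 0.51, and Pmaip1 has the widest interval, 0.17 to 2.42.

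Windows of 250 bases before to 50 bases after annotated gene starts were searched for GTAAACA, a core sequence bound by forkhead factors such as FOXO, on both strands. The letters occurred in 1199 of 32851 windows in RefSeq (3.65%). They occurred in 2 of 46 windows (4.35%) of the 35 members with an entry, close to the share of all windows. The 2 windows belonged to Bcl2l11, the member called by the test, and to Bbc3, which was not called. They are shown for that reason as the 250 bases before each start, in the GRCm38.p6 build, on the plus strand, 5′ to 3′, with the motif in capitals. The Bcl2l11 stretch is chr2:128125788-128126037, where the motif begins 227 bases before the start. The Bbc3 stretch is chr7:16310011-16310260, where the motif lies on the minus strand and its first printed base is 167 bases before the start of that transcript.
Bcl2l11: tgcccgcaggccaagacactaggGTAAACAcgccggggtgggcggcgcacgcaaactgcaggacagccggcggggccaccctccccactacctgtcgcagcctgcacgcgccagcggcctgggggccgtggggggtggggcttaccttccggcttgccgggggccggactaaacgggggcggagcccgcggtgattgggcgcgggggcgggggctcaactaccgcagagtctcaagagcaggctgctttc
Bbc3: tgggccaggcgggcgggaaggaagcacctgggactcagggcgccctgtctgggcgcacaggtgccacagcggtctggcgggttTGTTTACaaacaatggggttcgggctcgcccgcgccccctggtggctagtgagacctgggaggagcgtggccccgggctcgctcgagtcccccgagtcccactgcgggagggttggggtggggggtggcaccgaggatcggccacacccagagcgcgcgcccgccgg
A match is a description of these letters and not a binding site shown by the data. The windows at other annotated starts of Bcl2l11 and Bbc3 held no match. Htra2, Bnip3l, Pmaip1, Bik and Tnfrsf10b had no window in the table used.

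The BH3-only genes held the member that was called. Bcl2l11 (ENSMUSG00000027381.16, chr2:128126038-128162547 on the plus strand of mm10) had 62.7, 67.5, 55.2, 65.6 and 75.6 CPM in anti-Ang2 libraries 1 to 5, against 42.5, 42.1, 38.3, 54.4 and 52.3 CPM in IgG libraries 1 to 5. Every anti-Ang2 library stood above every IgG library, by a narrow margin between anti-Ang2 3 and IgG 4. The means were 65.3 ± 7.42 CPM with anti-Ang2 and 45.9 ± 7.03 CPM with IgG (SD, n = 5 each). The log2 fold change was 0.51 ± 0.12 (SE), with a 95% interval of 0.25 to 0.77, or 1.42-fold (edgeR, adjusted p = 0.0366).

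The sign of the Bcl2l11 difference held in every alternative run, but its edgeR call did not. Leaving out 1 library at a time gave log2 fold changes of 0.45 to 0.58 and edgeR adjusted p-values of 0.0280 to 0.0955, under the threshold only without anti-Ang2 3, without IgG 4 or without IgG 5. The call was lost without any 1 of anti-Ang2 1, 2, 4 and 5 or of IgG 1, 2 and 3. With the melanoma sum as a covariate the value was 0.51 ± 0.16 (edgeR, adjusted p = 0.186), and with the macrophage sum it was 0.62 ± 0.13 (edgeR, adjusted p = 0.0526). Without anti-Ang2 1, 2 and 3, the libraries of highest melanoma sum, it was 0.61 ± 0.15 (edgeR, adjusted p = 0.0987). That run rests on anti-Ang2 4 and 5 alone, to which limma-voom gave its lowest quality weights, 0.606 and 0.417.

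The other BH3-only genes did not pass the adjusted threshold. Bik, the most abundant of them per length, encodes a protein of the endoplasmic reticulum. It had 59.6, 80.3, 72.9, 67.9 and 88.6 CPM in anti-Ang2 libraries 1 to 5, against 64.7, 74.0, 103.0, 76.5 and 77.5 CPM in IgG libraries 1 to 5. The groups overlapped over most of their range, and the log2 fold change of Bik was -0.10 ± 0.14 (edgeR, adjusted p = 0.782).

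Pmaip1 (NOXA, which binds MCL1) and Bmf (a BH3-only protein that associates with motor proteins of the cytoskeleton) are given by library too, a choice made after their values were seen. Pmaip1 had 38.6, 36.6, 51.6, 78.3 and 65.5 CPM in anti-Ang2 libraries 1 to 5, against 61.3, 8.80, 9.33, 12.4 and 18.9 CPM in IgG libraries 1 to 5. All anti-Ang2 libraries stood above IgG libraries 2 to 5, while IgG 1 lay within the anti-Ang2 range. Its log2 fold change was 1.29 ± 0.51 over all libraries (edgeR, adjusted p = 0.203). Without IgG 1 it was 2.13 ± 0.30 (edgeR, adjusted p = 0.00334). Of the 10 runs that left out 1 library, only that 1 passed the threshold, with adjusted p-values of up to 0.374 (edgeR). With the macrophage sum as a covariate the log2 fold change was 1.09 ± 0.46 (edgeR, adjusted p = 0.365). With the melanoma sum it was 2.39 ± 0.65 (edgeR, adjusted p = 0.125). IgG 1 had the highest macrophage sum of the IgG libraries, 206 CPM, and a link was not tested.

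Bmf had 9.07, 9.56, 9.74, 7.38 and 7.68 CPM in anti-Ang2 libraries 1 to 5, against 3.28, 6.23, 5.59, 3.89 and 7.49 CPM in IgG libraries 1 to 5. Only IgG 5 reached into the anti-Ang2 range. The log2 fold change of Bmf was 0.71 ± 0.24 (edgeR, adjusted p = 0.128). Bbc3 (PUMA) averaged 33.3 ± 6.15 CPM with anti-Ang2 and 29.0 ± 3.28 CPM with IgG, a log2 fold change of 0.20 ± 0.14 (edgeR, adjusted p = 0.507). Bid, which caspase-8 cleaves to link death receptors to mitochondria, and Bad, whose protein is inactivated by phosphorylation downstream of AKT, had log2 fold changes of 0.15 and -0.17. Within the 7 BH3-only genes the point estimates therefore ran both ways, 5 positive and 2 negative, with a median of 0.20.

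**Figure D2:**
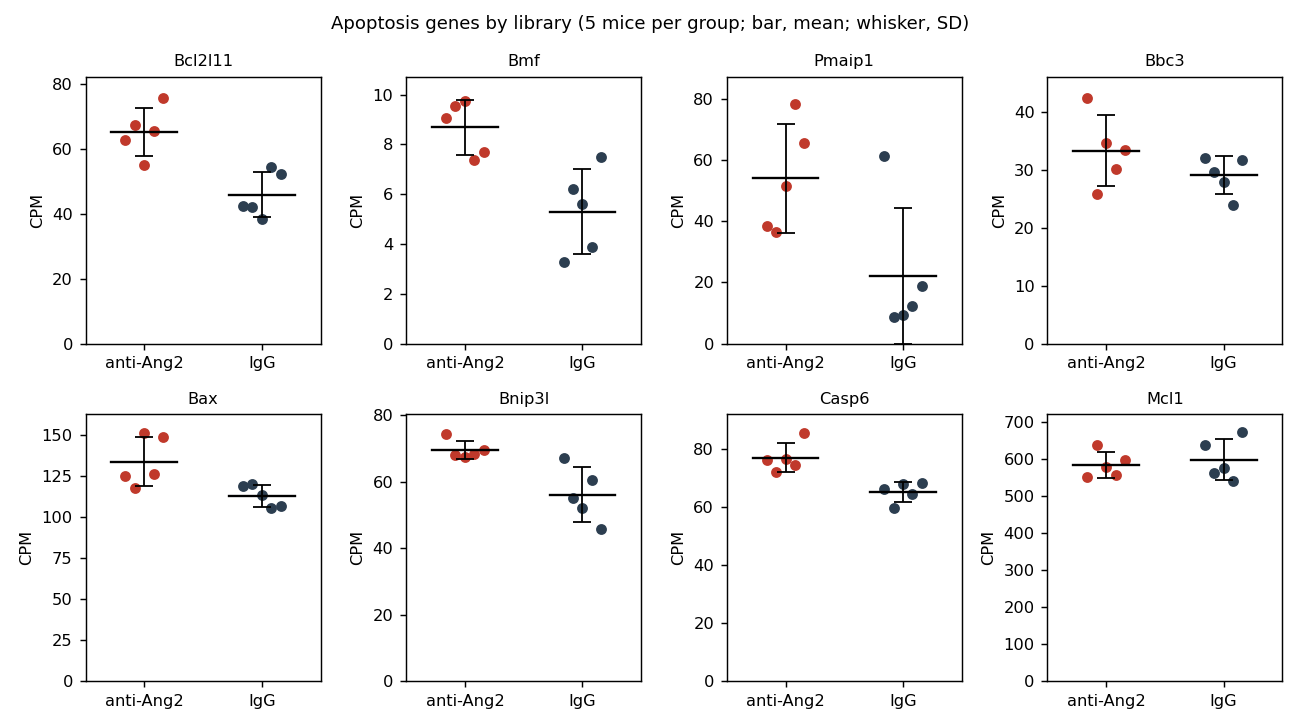
CPM of 8 apoptosis genes in each library (points), with the mean (bar) and SD (whisker) of 5 mice per group, anti-Ang2 left and IgG right. The groups do not overlap for Bcl2l11, Bnip3l and Casp6, the IgG 1 library of Pmaip1 stands at 61.3 CPM, and Mcl1 overlaps throughout.

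Bok, whose product resides mainly at the endoplasmic reticulum, had the highest mean FPKM (a level scaled to gene length) of the 3 effector genes over all 10 libraries, with a range that overlapped that of Bax. It had 157, 214, 168, 185 and 164 CPM in anti-Ang2 libraries 1 to 5, against 161, 165, 192, 176 and 134 CPM in IgG libraries 1 to 5. The groups overlapped, with a log2 fold change of 0.10 ± 0.11 (edgeR, adjusted p = 0.718).

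Bax, whose protein moves from the cytosol to mitochondria on activation, averaged 134 ± 14.97 CPM with anti-Ang2 and 113 ± 6.86 CPM with IgG. Its log2 fold change of 0.24 ± 0.09 did not pass adjustment (edgeR, adjusted p = 0.151). Bak1, whose protein is resident at mitochondria, was low, at 3.0 ± 0.44 CPM with anti-Ang2 and 2.31 ± 0.34 CPM with IgG. The interval of Bak1, -0.14 to 0.90 on the log2 scale, was correspondingly wide. Exons of Bax and Bak1 overlap those of other annotated genes over 12.2% and up to 18.2% of their length, and such shared reads make both values uncertain.

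Bnip3l (NIX) and Bnip3 encode related proteins of the outer mitochondrial membrane that serve as receptors for mitophagy and are known to be raised by hypoxia. Bnip3l (chr14:66985239-67008877, minus strand) had 74.3, 68.0, 67.5, 68.4 and 69.7 CPM in anti-Ang2 libraries 1 to 5, against 67.3, 55.1, 52.1, 60.6 and 45.9 CPM in IgG libraries 1 to 5. Its groups did not overlap, although anti-Ang2 3 and IgG 1 nearly met, and the SD was 2.79 CPM with anti-Ang2 against 8.18 CPM with IgG. The log2 fold change was 0.31 ± 0.10 (edgeR, adjusted p = 0.114). Of the 10 runs that left out 1 library, it passed the threshold only without IgG 1 (0.38 ± 0.09, edgeR adjusted p = 0.0460). With the macrophage sum as a covariate it was 0.21 ± 0.10 (edgeR, adjusted p = 0.452). With the melanoma sum it was 0.28 ± 0.14 (edgeR, adjusted p = 0.404). Bnip3 ranged from 8.56 to 35.5 CPM with anti-Ang2 and from 5.17 to 13.8 CPM with IgG. Its highest values were 35.5, 23.4 and 14.7 CPM in anti-Ang2 1, 2 and 3, the libraries with the highest melanoma sums. The log2 fold change of Bnip3 was 0.85 ± 0.38 over all libraries (edgeR, adjusted p = 0.260) and -0.01 ± 0.37 without those 3 libraries (edgeR, adjusted p = 0.997).

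None of the 3 genes of the death receptor branch passed the edgeR test at an adjusted or unadjusted p under 0.05, and none was called by DESeq2 or limma-voom. Tnfrsf10b, the mouse receptor for TRAIL and the one with the highest mean FPKM over all libraries, had 13.4, 13.9, 12.7, 12.5 and 14.1 CPM in anti-Ang2 libraries 1 to 5, against 11.4, 12.6, 12.0, 13.7 and 15.01 CPM in IgG libraries 1 to 5. All anti-Ang2 values lay within the wider IgG range, and the log2 fold change was 0.04 ± 0.12 (edgeR, adjusted p = 0.919). Fas, the receptor for FAS ligand, averaged 5.17 ± 1.58 CPM with anti-Ang2 and 5.44 ± 1.49 CPM with IgG. Fadd, the adaptor that joins both receptors to caspase-8, had a log2 fold change of -0.29 ± 0.18 (edgeR, adjusted p = 0.445), the most negative point estimate of the 40 genes.

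Of the 5 caspase genes, none passed the adjusted edgeR threshold, while 2 passed at an unadjusted p under 0.05, Casp6 and Casp8. Casp6 (chr3:129901425-129914103, plus strand), which encodes an executioner caspase, had 76.2, 72.2, 76.4, 74.6 and 85.4 CPM in anti-Ang2 libraries 1 to 5, against 66.2, 59.6, 67.9, 64.5 and 68.2 CPM in IgG libraries 1 to 5. The groups did not overlap, but the difference was small: 0.24 ± 0.07 on the log2 scale, or 1.18-fold (edgeR, adjusted p = 0.0909). Casp8, the initiator at death receptors and the member caspase with the highest mean FPKM over all libraries, had 79.4, 93.7, 78.7, 76.5 and 88.9 CPM in anti-Ang2 libraries 1 to 5, against 87.7, 92.8, 103, 104 and 94.1 CPM in IgG libraries 1 to 5. Its groups overlapped, with a log2 fold change of -0.20 ± 0.08 (edgeR, adjusted p = 0.201).

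Casp2, an initiator caspase activated by the PIDDosome, averaged 70.7 ± 3.66 CPM with anti-Ang2 and 70.8 ± 7.07 CPM with IgG. Casp9, the initiator of the apoptosome, averaged 46.0 ± 12.3 CPM with anti-Ang2 and 51.4 ± 4.49 CPM with IgG. Casp12, a rodent caspase linked to endoplasmic reticulum stress, averaged 61.1 ± 25.5 CPM with anti-Ang2 and 59.3 ± 12.1 CPM with IgG. The wide spread of Casp12 with anti-Ang2 came with a single value of 106 CPM in anti-Ang2 5, where the other 4 libraries had 43.4 to 55.0 CPM.

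Over the 40 genes, 3 had no overlap between the anti-Ang2 and IgG libraries: Bcl2l11, Bnip3l and Casp6, all higher with anti-Ang2. All 3 belong to the pro-apoptotic side, which holds 29 of the 40 genes. Over all genes tested, 2.34% stood apart in that direction. No member stood apart in the opposite direction.

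The genes for proteins that leave mitochondria or form the apoptosome showed small differences. Aifm1, which encodes apoptosis-inducing factor, had the highest mean FPKM of the 6 over all libraries, 12.8 against 12.4 for Htra2, with overlapping ranges. It had 46.7, 48.1, 45.6, 53.3 and 49.6 CPM in anti-Ang2 libraries 1 to 5, against 46.6, 49.8, 53.3, 51.0 and 48.7 CPM in IgG libraries 1 to 5. The groups overlapped throughout, with a log2 fold change of -0.04 ± 0.07 (edgeR, adjusted p = 0.866). Apaf1, the scaffold of the apoptosome, averaged 102 ± 20.3 CPM with anti-Ang2 and 107 ± 7.20 CPM with IgG. Diablo (SMAC) and Htra2, whose proteins bind and neutralize XIAP, had log2 fold changes of 0.11 and 0.16, and Endog, a mitochondrial nuclease, had 0.13. Cycs, which encodes cytochrome c, had 0.23 ± 0.22 at 4.79 CPM with anti-Ang2 and 4.10 CPM with IgG; the gene has many processed copies, so its count is uncertain. Exon overlaps with other genes reached 35.7% of the length in Endog and 25.6% in Htra2.

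Dffa encodes the inhibitor and chaperone of the DNA-cutting nuclease that Dffb encodes. Dffa had 18.3, 21.4, 19.0, 33.8 and 23.1 CPM in anti-Ang2 libraries 1 to 5, against 21.2, 30.1, 23.6, 20.5 and 33.1 CPM in IgG libraries 1 to 5. The groups overlapped over most of their range, with a log2 fold change of -0.15 ± 0.20 for Dffa (edgeR, adjusted p = 0.763) and -0.06 ± 0.18 for Dffb (edgeR, adjusted p = 0.917). Pdcd4, which encodes an inhibitor of translation initiation, had 20.7, 24.5, 19.6, 21.6 and 33.5 CPM in anti-Ang2 libraries 1 to 5, against 28.3, 26.1, 26.4, 30.9 and 28.5 CPM in IgG libraries 1 to 5. For Pdcd4, anti-Ang2 5 was the highest of all 10 libraries and the other 4 anti-Ang2 libraries lay below every IgG library. Its log2 fold change was -0.23 ± 0.15 (edgeR, adjusted p = 0.467).

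None of the 4 guardian genes passed the edgeR test at an adjusted or unadjusted p under 0.05, and none was called by DESeq2 or limma-voom. Mcl1, a short-lived guardian that binds BIM, NOXA and BAK, had 551, 637, 578, 557 and 599 CPM in anti-Ang2 libraries 1 to 5, against 638, 561, 575, 542 and 673 CPM in IgG libraries 1 to 5. The groups overlapped throughout. The log2 fold change of Mcl1 was -0.03 ± 0.08, with a 95% interval of -0.21 to 0.14 (edgeR, adjusted p = 0.890). Bcl2l1 (BCL-XL) averaged 191 ± 42.7 CPM with anti-Ang2 and 181 ± 18.6 CPM with IgG, and Bcl2 averaged 31.2 ± 1.83 CPM with anti-Ang2 and 26.2 ± 4.90 CPM with IgG. Bcl2 had the highest fold change of the anti-apoptotic genes, 0.25 ± 0.13 on the log2 scale (edgeR, adjusted p = 0.352). Bcl2l2 (BCL-W) was the guardian with the widest interval, -0.78 to 0.34, at a level of 8.69 ± 3.37 CPM with anti-Ang2 and 10.1 ± 2.12 CPM with IgG.

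Cflar encodes FLIP, which competes with caspase-8 at FADD, and had the highest mean FPKM of the 3 caspase inhibitor genes over all libraries. It had 122, 142, 125, 144 and 134 CPM in anti-Ang2 libraries 1 to 5, against 117, 121, 113, 123 and 123 CPM in IgG libraries 1 to 5. The top of the IgG range just crossed the bottom of the anti-Ang2 range, and the log2 fold change was 0.16 ± 0.07 (edgeR, adjusted p = 0.235). Xiap, a direct inhibitor of caspases, averaged 67.3 ± 9.48 CPM with anti-Ang2 and 79.3 ± 8.19 CPM with IgG, a log2 fold change of -0.24 ± 0.11 (edgeR, adjusted p = 0.272). Birc6, a very large ubiquitin ligase that acts on caspases and SMAC, had -0.03 ± 0.09.

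Among the remaining anti-apoptotic genes, Bag1, a co-chaperone of HSP70 that binds BCL2, was the most abundant per length. It had 188, 181, 199, 149 and 148 CPM in anti-Ang2 libraries 1 to 5, against 211, 182, 188, 173 and 167 CPM in IgG libraries 1 to 5. The groups overlapped, with anti-Ang2 4 and 5 the lowest, and the log2 fold change was -0.09 ± 0.10 (edgeR, adjusted p = 0.729). Bag3, a further HSP70 co-chaperone, Api5, an inhibitor of apoptosis first described in cells deprived of growth factors, and Faim, an inhibitor of FAS-induced death, had log2 fold changes of 0.11, -0.11 and 0.07.

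Intervals from the edgeR fit, each for 1 gene and not adjusted over the 40, bound what the 10 libraries could have missed. For 31 of the 40 genes, the 95% interval lay inside a 1.5-fold change either way, and for 37 it lay inside a 2-fold change. Pmaip1, Bmf and Bnip3 were the exceptions at 2-fold, all toward higher values with anti-Ang2. Of the 11 anti-apoptotic genes, 10 lay inside 1.5-fold, and Bcl2l2 reached beyond it.

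Levels per length, as FPKM (fragment counts scaled to exon length and library size), set the guardians and effectors side by side. Mcl1 was the most abundant member at 178 ± 7.27 FPKM with anti-Ang2 and 180 ± 15.2 FPKM with IgG, followed by Bag1 at 134 ± 15.8 FPKM with anti-Ang2 and 141 ± 15.8 FPKM with IgG. In both groups every Mcl1 value lay above every Bag1 value, and every Bag1 value lay above every value of Bok, Bik and Bax. Bok (101 FPKM with anti-Ang2, 92.7 with IgG), Bik (81.7 with anti-Ang2, 86.2 with IgG) and Bax (88.6 with anti-Ang2, 73.6 with IgG) overlapped in each group, so their order is not set by these libraries. Bcl2l1 followed at 43.1 FPKM with anti-Ang2 and 40.5 FPKM with IgG. Bcl2 itself was low, at 3.55 ± 0.20 FPKM with anti-Ang2 and 2.94 ± 0.55 FPKM with IgG, and Bcl2l11 stood at 8.49 ± 1.07 FPKM with anti-Ang2 and 5.88 ± 0.90 FPKM with IgG. The lowest level was that of Bak1, at 1.3 FPKM with anti-Ang2 and 0.989 FPKM with IgG.

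**Figure D3:**
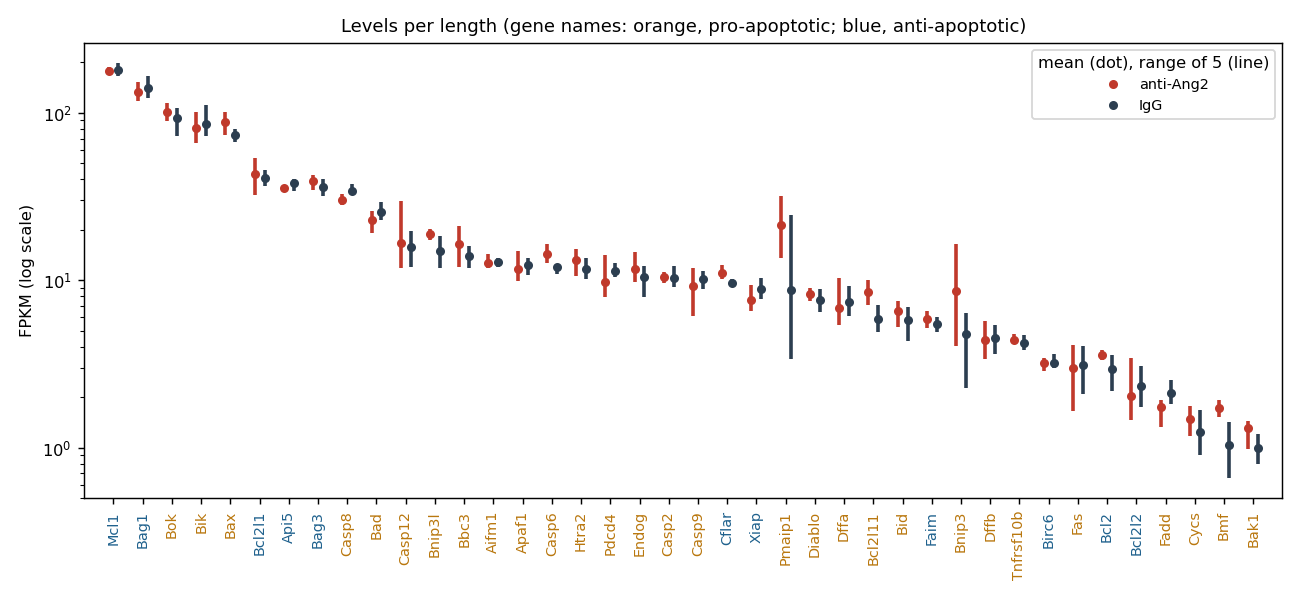
Deposited FPKM of the 40 genes on a log axis, ordered by the IgG mean; dots are means and lines the range of 5 libraries, anti-Ang2 left of IgG. Mcl1, Bag1, Bok, Bik and Bax lead the order, and Bak1 is lowest with a mean of 0.989 FPKM in IgG.

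The balance between a pro- and an anti-apoptotic partner was measured within each library as the log2 ratio of counts per exon length for 6 gene pairs. The Bcl2l11/Mcl1 ratio was -4.37, -4.47, -4.62, -4.32 and -4.22 in anti-Ang2 libraries 1 to 5, against -5.14, -4.97, -5.14, -4.55 and -4.92 in IgG libraries 1 to 5. In 4 of 5 anti-Ang2 libraries it stood above every IgG library, and the means differed by 0.54 (exact two-sided permutation test, p = 0.0159, adjusted over the 6 pairs 0.0714). The Bak1/Mcl1 ratio differed by 0.40 (exact two-sided permutation test, p = 0.0238, adjusted 0.0714). Neither passed after adjustment; with 5 against 5 libraries the smallest p the test can give is 0.00794. The differences were 0.19 for Bax/Bcl2l1, -0.03 for Bax/Bcl2, -0.09 for Bbc3/Bcl2 and -0.23 for Bad/Bcl2l1, with adjusted p-values of 0.492 to 0.873 (exact two-sided permutation tests). By edgeR the log2 fold changes were 0.51 for Bcl2l11, 0.38 for Bak1 and -0.03 for Mcl1. The Bcl2l11/Mcl1 and Bak1/Mcl1 differences therefore largely restate those of Bcl2l11 and Bak1 in the same libraries.

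**Figure D4:**
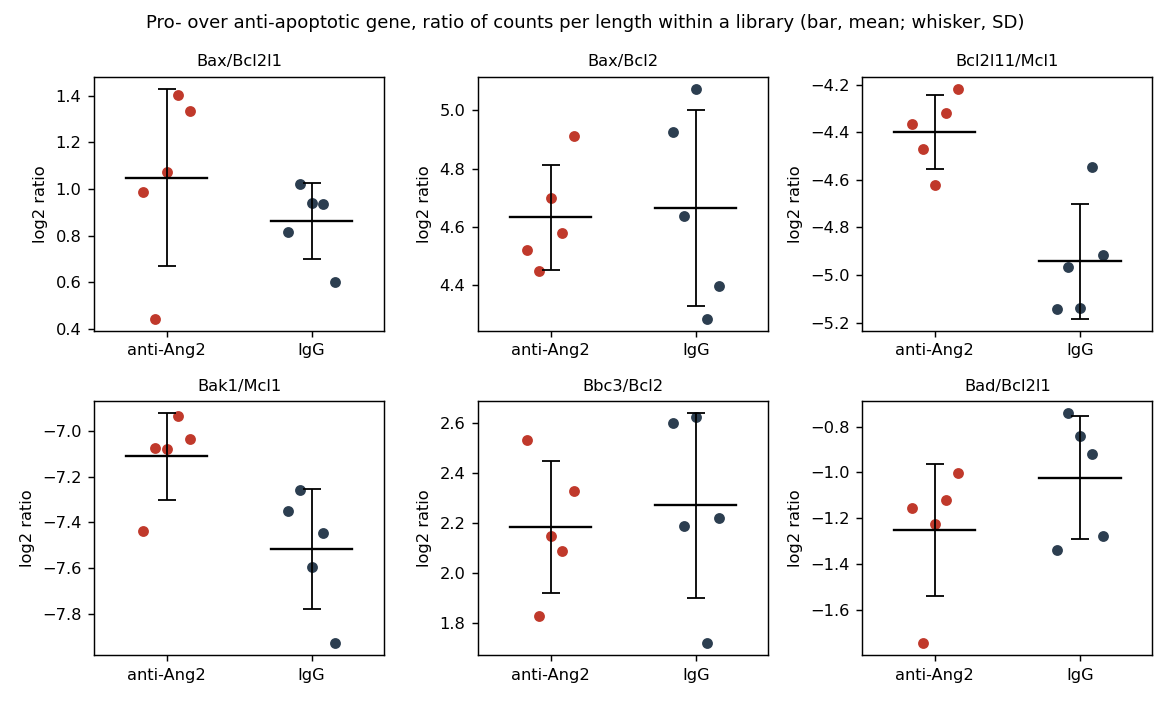
Log2 ratio of a pro- to an anti-apoptotic gene within each library (points), with mean (bar) and SD (whisker) of 5 libraries per group, anti-Ang2 left and IgG right; each panel has its own axis range, which does not start at 0. Bcl2l11/Mcl1 averages -4.40 with anti-Ang2 and -4.94 with IgG, and the groups overlap in all 6 panels.

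With other tools, more members passed. DESeq2 called 4 members higher, Bcl2l11, Bmf, Bnip3l and Casp6, where it called 4.25% of all genes it tested higher. limma-voom with quality weights called 4 as well, Pmaip1, Bcl2l11, Bmf and Bnip3l, against 4.13% of all genes. The authors' deposited table lists adjusted p-values of 0.00208 for Bcl2l11, 0.0150 for Casp6, 0.0325 for Bmf and 0.0435 for Bnip3l, all higher with anti-Ang2, against 4.25% of the genes with an adjusted p in it. Every member called by any of these tools was pro-apoptotic, the side that holds 29 of the 40 members. These tools use the same libraries as edgeR and are no independent evidence.

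Other genes of the pathway were read from lists of symbols. Of 50 further apoptosis genes, 36 were tested, 18 with positive and 18 with negative fold changes and a median log2 fold change of -0.01. Birc2 (cIAP1), a ubiquitin ligase that restrains death signals from TNF receptors, averaged 45.1 ± 4.51 CPM with anti-Ang2 and 56.5 ± 6.30 CPM with IgG. Its log2 fold change of -0.32 ± 0.10 missed the threshold (edgeR, adjusted p = 0.101), while DESeq2 and limma-voom called it lower. Other genes of this list that edgeR did not call, some with larger falls than Birc2, are not given. Of this list, edgeR called 1 gene lower.

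That gene was Naip2, a member of the NAIP family, which in mice also senses bacterial proteins. Naip2 had 3.84, 4.28, 3.69, 5.47 and 4.62 CPM in anti-Ang2 libraries 1 to 5, against 9.32, 7.62, 9.38, 8.22 and 11.2 CPM in IgG libraries 1 to 5. The groups did not overlap, and the log2 fold change was -1.06 ± 0.19 (edgeR, adjusted p = 0.00803). With the melanoma sum as a covariate it was -0.79 ± 0.23 (edgeR, adjusted p = 0.155). Near-identical family copies can share reads, so the value of Naip2 is uncertain.

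Of a list of 26 genes, Trp53 itself and p53 target genes, 25 were tested, and 19 of these are not among the 40 genes. By edgeR none of the 25 was higher at an adjusted p under 0.05. At an unadjusted p under 0.05, 4 of the 25 were higher by edgeR, against 1484 of all 16240 genes tested. Of these 4, Bax and Pmaip1 are among the 40 genes, and the other 2 were Mdm2 and Gadd45a. Gadd45a was called higher by both DESeq2 and limma-voom, and limma-voom also called Pmaip1. Gadd45a, a stress-induced growth arrest gene, averaged 25.0 ± 3.65 CPM with anti-Ang2 and 17.4 ± 2.66 CPM with IgG (log2 fold change 0.52 ± 0.14, edgeR adjusted p = 0.0643). Sesn1, a stress-induced regulator of mTORC1 that FOXO factors also induce, was lower by all 3 tools. It averaged 75.2 ± 10.1 CPM with anti-Ang2 and 105 ± 13.2 CPM with IgG, a log2 fold change of -0.48 ± 0.11 (edgeR, adjusted p = 0.0394), without overlap between groups. The Sesn1 call was lost in 13 of 21 alternatives, among them the melanoma sum as a covariate (-0.28 ± 0.14, edgeR adjusted p = 0.386). Cdkn1a, a principal p53 target, averaged 141 ± 47.8 CPM with anti-Ang2 and 137 ± 13.4 CPM with IgG. Of 16 genes of necroptosis and pyroptosis, 12 were tested and none was called by edgeR, with 1 at an unadjusted p under 0.05, Aim2, a DNA sensor of the inflammasome. DESeq2 called Aim2 higher and limma-voom called Il1b, an inflammatory cytokine, higher. Aim2 was at 1.95 ± 0.98 CPM with anti-Ang2 and 0.421 ± 0.262 CPM with IgG, and Il1b at 5.05 ± 1.91 CPM with anti-Ang2 and 2.07 ± 2.31 CPM with IgG. Macrophages express both genes, and the part of the macrophage RNA described above in these values was not tested.

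**Figure D5:**
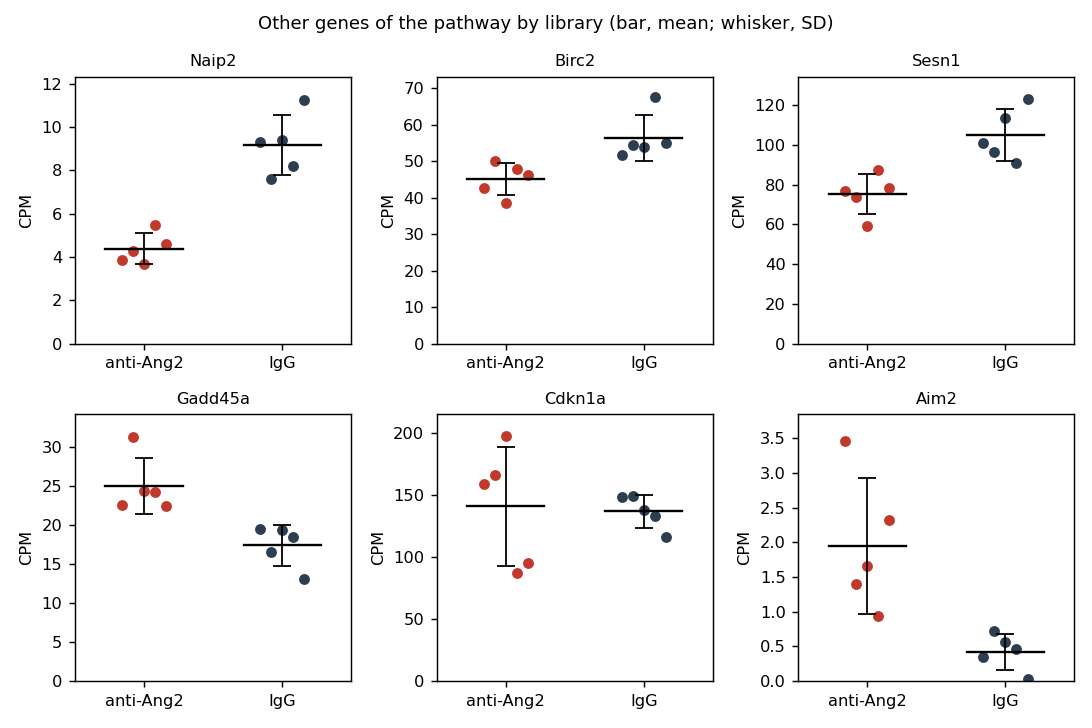
CPM of 6 further genes in each library (points), with mean (bar) and SD (whisker) of 5 mice per group, anti-Ang2 left and IgG right. The groups overlap for Cdkn1a alone of the 6; Naip2 and Sesn1 passed the edgeR threshold, Birc2, Gadd45a and Aim2 did not, and Cdkn1a averages 141 CPM with anti-Ang2 and 137 CPM with IgG.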

How the data were processed

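Each library was made from 0.5 ng of RNA by SMART-Seq v4, per the labels' protocols, a method that keeps no strand information. The submitters' processing notes name mm10, STAR, featureCounts and DESeq2; their versions, the annotation and the strand setting are not given in the sources used here. The authors deposited raw counts and FPKM per gene and library, and a log2 fold change with an adjusted p-value per gene, per the file headers. FPKM was used for levels; 10 deposited columns of a further unit were not used.

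Groups follow the treatment label. Counts were fitted with edgeR 4.0.16 (R 4.3.3, TMM, minimum count 10, minimum total 15), and p-values were adjusted over all 16240 genes tested. Standard errors were derived from the log2 fold change and F value of each gene, and 95% intervals from these with a t quantile. CPM are TMM-scaled. limma 3.58.1 and DESeq2 1.42.0 were alternatives, among 21 in all. Gene-pair ratios used exact permutation tests. The fits were tested on simulated data. Gene positions and exon lengths come from GENCODE M21 by gene ID; 28 of the 40 members had the same ID version. In the edgeR fit described, libraries were not paired by the replicate numbers in their titles. All pairs of libraries within a group differed by more than sampling noise. All 40 members are named, with values per library for those called, those without overlap and the highest mean FPKM of each role; the members and lists were chosen with earlier results of these data known. Exons of 11 members overlap other genes by at least 5%. Depth was 38090933 to 83850341 counts per library. Of the further apoptosis genes, 2 are not reported here.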

Additional observations from a re-analysis of the deposited data

Results flagged for a closer look

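In 5 of the 80 groups examined, 1 library stood apart from the other 4 of its group: the gap to its nearest neighbour took more than 0.71 of the group's whole range, the 95% limit of Dixon's test for 5 values. Chance flags about 1 in 20 groups, so 5 of 80 is near that rate. Pmaip1 had 61.26 CPM in IgG 1, where the other IgG libraries had 8.80 to 18.9 CPM. Casp12 had 105.9 CPM in anti-Ang2 5, where the other anti-Ang2 libraries had 43.4 to 55.0 CPM. Apaf1 had 137.5 CPM in anti-Ang2 2, where the others had 86.3 to 96.2 CPM. On the low side, Bak1 had 2.239 CPM in anti-Ang2 1, where the others had 3.02 to 3.33 CPM. Bag3 had 82.26 CPM in anti-Ang2 4, where the others had 98.7 to 101 CPM.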

How the results depend on the processing

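The sign of the Bcl2l11 difference held in all 21 alternatives, and its edgeR call was lost in 12. It was 0.50 with no filter on low counts (edgeR adjusted p = 0.0536), 0.51 with the melanoma sum and 0.62 with the macrophage sum as a covariate, 0.61 without anti-Ang2 1, 2 and 3, and 0.42 without anti-Ang2 4 and 5, an alternative chosen after seeing the data (edgeR adjusted p = 0.101). Without 1 library at a time it was 0.45 to 0.58. The number of members called higher was 4 with DESeq2 and with limma-voom, and 0 with no filter, with either covariate, without anti-Ang2 1, 2 and 3 and without anti-Ang2 4 and 5; without 1 library at a time it was 0 to 2. Without anti-Ang2 4 and 5, 1 member was called lower, Xiap (edgeR adjusted p = 0.0437).

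Over the whole table, 217 genes were called higher and 454 lower. The calls were 780 higher and 888 lower with DESeq2, 670 and 780 with limma-voom, 46 and 135 with the melanoma sum, 44 and 159 with the macrophage sum, and 55 and 178 without anti-Ang2 1, 2 and 3. Without anti-Ang2 4 and 5, 531 were higher and 598 lower. Without 1 library at a time, 82 to 326 were higher and 259 to 468 lower. A replicate block on the number in the titles gave 82 higher and 268 lower, with Bcl2l11 at 0.51 (edgeR adjusted p = 0.0341). In their deviations from the group means, same-numbered libraries correlated by -0.125 to 0.113 and differently numbered ones by -0.200 to 0.190. Such values cannot show whether same-numbered libraries were handled together.

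Of the 40 members, 24 kept their sign in all alternatives. For the other 16, no value with the opposite sign passed the threshold. The melanoma sum turned Bid to -0.0091, Bik to 0.0991, Fas to 0.178, Aifm1 to 0.0164, Endog to -0.0130, Dffa to 0.0060, Bcl2l1 to -0.0194, Bcl2l2 to 0.253, Mcl1 to 0.0406 and Birc6 to 0.0649. The macrophage sum turned Bik to 0.0616, Casp2 to 0.0203, Aifm1 to 0.0056, Endog to -0.0241 and Dffa to 0.0453. Leaving out anti-Ang2 1, 2 and 3 turned Bid to -0.0503, Bnip3 to -0.0056, Fas to 0.28, Casp2 to 0.0412, Aifm1 to 0.0349, Endog to -0.16, Dffa to 0.13, Bcl2l1 to -0.24 and Bcl2l2 to 0.21. Casp2, at -0.0014 in the fit described, was 0.0066 with the stricter filter, 0.0080 with DESeq2, 0.0069 with RLE factors, 0.0184 with library totals and 0.0026 with the replicate block. Casp12 was -0.12 with limma-voom, -0.0132 with the replicate block and -0.24 without anti-Ang2 4 and 5, where Bag1 was 0.0251. Without 1 library at a time, Bik ran from -0.17 to 0.0124, Fas from -0.20 to 0.0812, Tnfrsf10b from -0.0043 to 0.0964, Casp2 from -0.0438 to 0.0562, Casp12 from -0.25 to 0.15, Dffb from -0.16 to 0.0071, Bcl2l1 from -0.0452 to 0.17, Mcl1 from -0.0664 to 0.0135 and Birc6 from -0.0829 to 0.0092. The difference in the log2 ratio Bax/Bcl2 ran from -0.13 to 0.0716 and that in the log2 ratio Bbc3/Bcl2 from -0.22 to 0.0035. The cause was not tested.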
